A study of Mus musculus with 60 samples.

Results

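The comparison set cocaine-seeking neurons of the nucleus accumbens (NAc) against cocaine-seeking neurons labelled as coming from the medial prefrontal cortex (mPFC). It holds 12 of the 60 libraries of the series, chosen by their title codes alone: 6 from the NAc and 6 labelled mPFC, with 3 male and 3 female pools a side and 3 mice in each pool. Libraries that share a sex and a replicate number are called 1 pool, and that both regions of a pool came from the same mice was assumed and is not stated in the labels. The question was which receptor, channel and peptide genes differ between the regions within the cocaine-seeking ensemble. All mice carried the genotype Ai14xFosiCre, a Cre recombinase under control of the activity gene Fos together with a Cre-dependent tdTomato reporter, and all had learned to self-administer both cocaine and sucrose. After extinction, 4-hydroxytamoxifen was given directly after a session in which cocaine cues were presented without the drug, so that neurons active in that window became red. The mice then had a sucrose cue session before the tissue was taken. NeuN-positive neurons with tdTomato and without cFos protein were sorted as cocaine-seeking. NeuN-positive neurons with neither label, sorted from the same punches, were the non-ensemble population (12 libraries), used here only to see whether the region differences also exist in untagged neurons. The mice were adult. The accumbens punches covered mainly lateral shell and lateral core, and the cortical punches mainly prelimbic and cingulate cortex. Each library is a pool, so the spread between libraries is the spread between pools of mice and not between single mice. The tag marks any neuron in which Fos was induced in the time window of 4-hydroxytamoxifen.

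In the NAc, most neurons are medium spiny neurons, GABAergic cells that fall into a dopamine D1-receptor class carrying substance P and dynorphin and a dopamine D2-receptor class carrying enkephalin and the adenosine receptor Adora2a. The mPFC is instead made mostly of glutamatergic pyramidal neurons, which fill their vesicles through the transporter Slc17a7, with a minority of GABAergic interneurons that carry somatostatin, neuropeptide Y, cholecystokinin or vasoactive intestinal peptide. Receptors, channels and peptides set how such a neuron listens, fires and signals.

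The region label of the mPFC libraries was not borne out by these markers, so they are called libraries labelled mPFC throughout. Slc17a7 reached 179 to 518 CPM (counts scaled to a common library total) in the 6 NAc libraries. In the libraries labelled mPFC it was 412, 43.4 and 518 in male pools 1, 2 and 3 and 73.2, 26.4 and 89.0 in female pools 1, 2 and 3. In 4 of the 6 it was thus lower than in every NAc library. Tbr1, a transcription factor of cortical pyramidal neurons, ranged from 24.6 to 63.3 CPM in the NAc and from 8.19 to 72.1 in the libraries labelled mPFC. The summed level of 12 cortical excitatory neuron markers was 617 to 1215 CPM in the NAc and 360 to 1319 CPM in the libraries labelled mPFC, with the 2 highest of the latter in male pools 1 and 3. Conversely, Drd1 stood at 14.5 to 83.0 CPM and Penk at 106 to 628 CPM in the libraries labelled mPFC, so medium spiny neuron transcripts were present in all 6. The 12 medium spiny markers summed to 975 to 4152 CPM there and to 3329 to 6519 CPM in the NAc. Which tissue the libraries labelled mPFC hold cannot be told from these files, and results are also given for male pools 1 and 3 alone.

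A further marker group moved with the label. A list of 8 genes of ependymal cells, the ciliated cells that line the ventricles, was drawn up after Ccdc153 and Dnah12 had been seen among the leading genes, and it is therefore only described. It summed to 31.2 to 40.4 CPM in the NAc and to 91.2 to 193 CPM in the libraries labelled mPFC, with no overlap and all 8 genes higher in the latter. The share of counts on pseudogenes was 3.16% to 5.59% in the NAc and 4.59% to 11.9% in the libraries labelled mPFC, and the share on odor, pheromone and taste receptor genes was 1.29% to 2.68% against 2.22% to 6.65%. The mitochondrial share did not overlap, at 2.15% to 2.75% in the NAc and 1.39% to 2.09% in the libraries labelled mPFC, and 28358 to 30736 genes had a count in the NAc against 30732 to 32440. The pan-neuronal list, 6 genes, summed to 3732 to 4564 CPM in the NAc and 2196 to 4251 CPM in the libraries labelled mPFC. The part of these shifts in the results below was not tested. Ddx3y, a gene of the Y chromosome, was at 15.7 to 41.6 CPM in the male libraries and at 0.367 to 1.41 CPM in female pools 1 and 3, but at 11.3 and 18.1 CPM in female pool 2, which goes against the sex label of that pool. Eif2s3y was also higher in female pool 2, at 4.60 and 10.8 CPM against at most 0.605 CPM in the other female pools. By contrast Uty, at 16.9 and 31.9 CPM in female pool 2, was below every male library (33.0 to 47.2 CPM), and Kdm5d did not separate the labelled sexes. The sample description field gives another sex and region than the title for the male libraries titled as mPFC and the female libraries titled as NAc, and the titles were followed. Library totals ran from 9933361 to 18708870 counts.

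**Figure D1:**
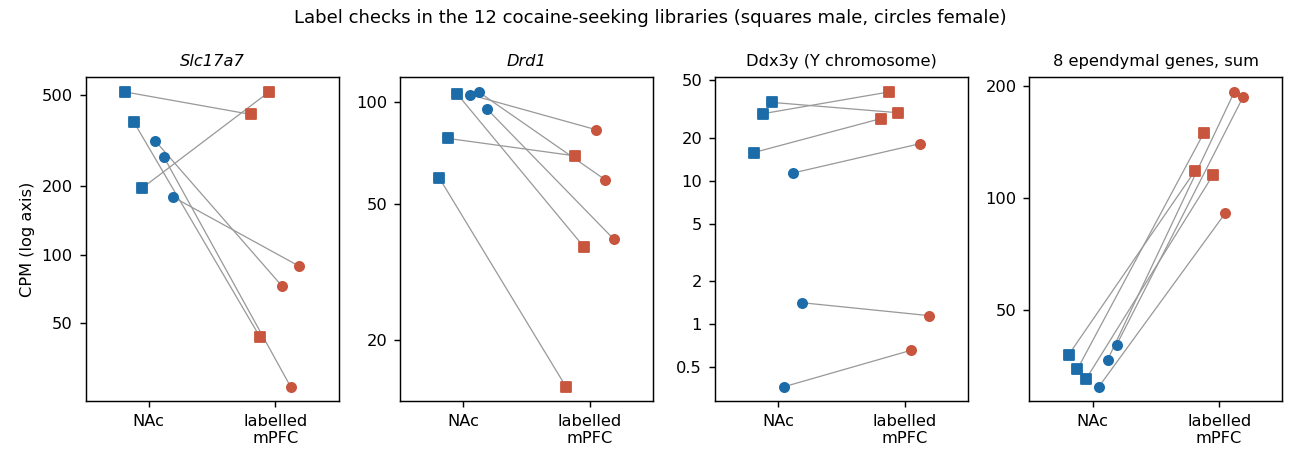
CPM on a log axis of Slc17a7, Drd1, Ddx3y and the sum of 8 ependymal genes in each of the 12 cocaine-seeking libraries, by region label, with a line joining the libraries of 1 pool, squares for male and circles for female pools. Slc17a7 is at 26.4 to 89.0 CPM in 4 of the 6 libraries labelled mPFC, below every NAc library, and the ependymal sum does not overlap between the labels.

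The regulatory sequence next to some of the genes that differed between the regions is shown first, so that the values can be read beside it. Of the 88 genes named by rule, 61 have an entry in the RefSeq promoter table (build GRCm38.p6). The windows below are the 250 bases before the annotated start of the prodynorphin gene Pdyn (at 2 starts), the tachykinin gene Tac1 and the neurotensin gene Nts, which were higher in the NAc, and of the incretin receptor gene Glp1r and the cation channel gene Trpc4, which were higher in the libraries labelled mPFC. Capitals mark TGACG, the core of the cyclic AMP response element, TGANTCA, the AP-1 motif bound by Fos and Jun proteins, and TATAAA, each on either strand. TGACG lies within the full element TGACGTCA, which was searched too and was in none of these windows.
Pdyn, first start (chr2:129699939-129700188, minus strand): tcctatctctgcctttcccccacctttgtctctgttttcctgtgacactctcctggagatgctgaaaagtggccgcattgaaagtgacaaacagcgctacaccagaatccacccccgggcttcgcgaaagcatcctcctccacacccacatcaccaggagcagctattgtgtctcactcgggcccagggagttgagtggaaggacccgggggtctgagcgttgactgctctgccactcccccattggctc
Pdyn, second start (chr2:129698659-129698908, minus strand): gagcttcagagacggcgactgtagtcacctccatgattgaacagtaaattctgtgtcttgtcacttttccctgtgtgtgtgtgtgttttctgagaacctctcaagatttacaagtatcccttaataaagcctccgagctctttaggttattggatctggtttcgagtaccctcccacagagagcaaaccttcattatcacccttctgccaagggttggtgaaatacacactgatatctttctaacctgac
Tac1 (chr6:7554811-7555060, plus strand): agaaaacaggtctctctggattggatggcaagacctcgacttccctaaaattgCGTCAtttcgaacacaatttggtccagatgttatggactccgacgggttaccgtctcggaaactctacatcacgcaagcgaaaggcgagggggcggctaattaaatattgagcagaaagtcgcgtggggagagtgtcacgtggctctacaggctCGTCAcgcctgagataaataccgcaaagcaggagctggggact
Nts (chr10:102490419-102490668, minus strand): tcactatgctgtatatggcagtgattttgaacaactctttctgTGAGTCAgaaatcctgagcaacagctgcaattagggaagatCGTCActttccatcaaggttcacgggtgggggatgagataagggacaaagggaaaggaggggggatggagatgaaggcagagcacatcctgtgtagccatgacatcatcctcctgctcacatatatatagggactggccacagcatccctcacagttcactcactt
Glp1r (chr17:30901617-30901866, plus strand): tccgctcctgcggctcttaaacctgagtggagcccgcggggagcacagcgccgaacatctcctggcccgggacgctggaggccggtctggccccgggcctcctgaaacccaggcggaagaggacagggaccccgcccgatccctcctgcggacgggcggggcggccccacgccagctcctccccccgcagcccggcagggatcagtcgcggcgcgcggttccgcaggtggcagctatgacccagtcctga
Trpc4 (chr3:54155807-54156056, plus strand): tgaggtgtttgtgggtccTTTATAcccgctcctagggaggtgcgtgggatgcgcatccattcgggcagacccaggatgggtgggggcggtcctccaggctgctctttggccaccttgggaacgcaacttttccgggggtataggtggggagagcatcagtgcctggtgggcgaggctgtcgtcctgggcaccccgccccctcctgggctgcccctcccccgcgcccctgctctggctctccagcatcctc
TGACG was found 2 times before Tac1 and 1 time before Nts, and TGANTCA 1 time before Nts. TATAAA was found 1 time, before Trpc4. In the 250 bases before all 32851 starts in the table, TGACGTCA is present in 1.55%, TGACG in 17.8%, TGANTCA in 6.75% and TATAAA in 12.4%. These are matches of letters and say nothing about which factor acts at these genes.

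Across the transcriptome the regions differed widely. Of 22468 genes tested with the edgeR quasi-likelihood test, blocked by pool, 2018 were higher in the NAc (8.98%) and 1727 were higher in the libraries labelled mPFC (7.69%) at an adjusted p under 0.05. Among the 19004 protein-coding genes of that fit the shares were 10.5% and 7.85%. Of the 481 listed receptor, channel and peptide genes, 480 were in the files and 452 passed the filter on low counts. Of those 452, 116 were higher in the NAc and 40 were higher in the libraries labelled mPFC, and 296 were not called. The 28 that did not pass, among them Oxt, Avp, Gal and Hcrt, had means of at most 2.82 CPM. The median log2 fold change (log2FC, NAc minus libraries labelled mPFC) of the 452 members was 0.02. It was −0.02 over the 19004 protein-coding genes and −0.11 over all genes tested.

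The direction of a call went with the level of the gene. Of the 276 members with a mean of 10 CPM or more, 114 were higher in the NAc (41.3%) and 19 were higher in the libraries labelled mPFC (6.88%), where the shares over all protein-coding genes of that level were 17.6% and 7.14%. Of the 176 members under 10 CPM, 2 were higher in the NAc (1.14%) and 21 in the libraries labelled mPFC (11.9%), where 0.633% and 8.84% of all protein-coding genes of that level were, so that the members' shares lay near those of other genes. The weakly expressed genes that were higher in the libraries labelled mPFC thus moved in the direction of the pseudogene share, and that share's part in their calls was not tested. In bulk samples, fewer cells of a type and less RNA per cell cannot be told apart.

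**Figure D2:**
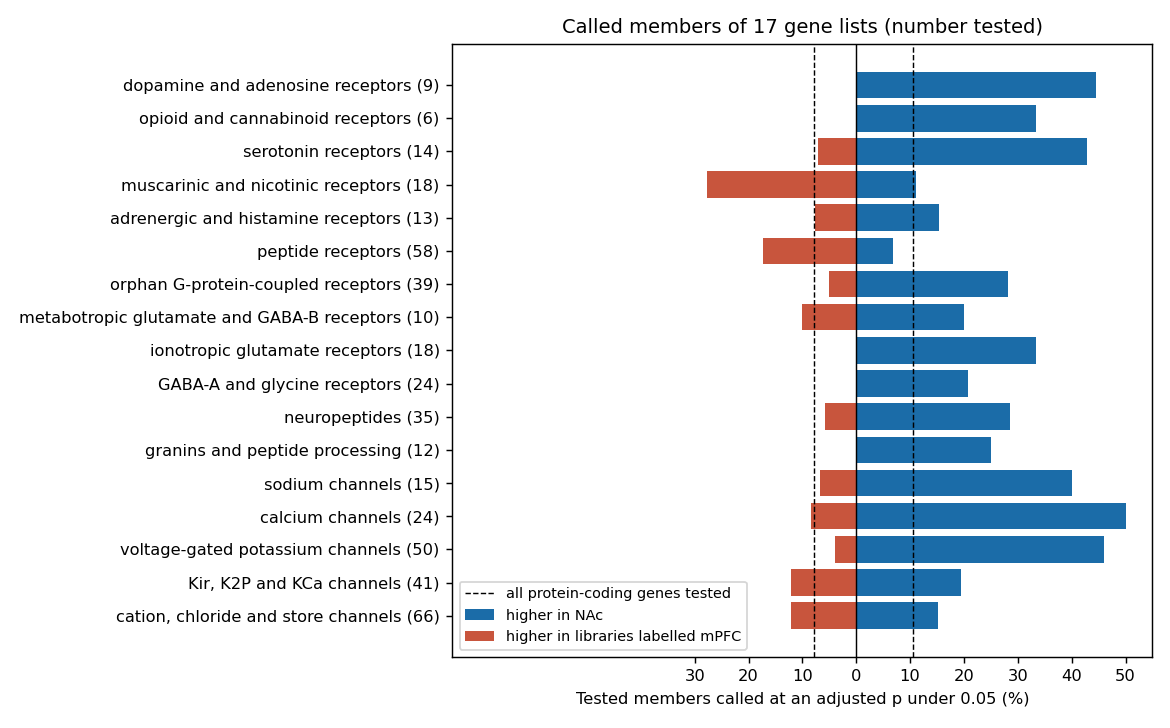
Percent of the tested members of each of 17 gene lists called higher in the NAc (right) or in the libraries labelled mPFC (left), with the number tested in brackets and the shares over all protein-coding genes as dashed lines (10.5% and 7.85%). Calcium channels (12 of 24) and voltage-gated potassium channels (23 of 50) have the highest shares higher in the NAc, and muscarinic and nicotinic receptors (5 of 18) have the highest share higher in the libraries labelled mPFC.

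Of 60 neuropeptide genes listed, 35 were tested, 10 were higher in the NAc and 2 were higher in the libraries labelled mPFC. The median log2FC was 0.09 over the 35. Over all protein-coding genes, 10.5% and 7.85% were called in those directions. The 10 were Crh, Agt, Nts, Penk, Tac1, Pdyn, Cartpt, Npy, Sst and Apln. Penk, the enkephalin precursor (chr4:4132722-4141856 in GRCm39), ranged from 594 to 1394 CPM in the 6 NAc libraries, with a median of 1105, and from 111 to 611 CPM in the libraries labelled mPFC, with a median of 376. It was higher in the NAc in all 6 pools, although the groups overlapped, since the NAc library of male pool 1 (594 CPM) was below the library labelled mPFC of male pool 2 (611 CPM). The log2FC was 1.56 ± 0.23 (SE, n = 6 pools, adjusted p = 0.00051).

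Pdyn, the dynorphin precursor (chr2:129528469-129541945), was at 64.4 to 140 CPM in the NAc, with a median of 118, and at 20.0 to 61.1 CPM in the libraries labelled mPFC, with a median of 40.9. Its groups did not overlap, and its log2FC was 1.49 ± 0.16 (adjusted p = 2.7e-05). Tac1, which encodes substance P and neurokinin A (chr6:7554120-7565834), was at 62.3 to 111 CPM, median 86.5, against 13.8 to 44.5 CPM, median 34.1. It did not overlap either (log2FC 1.50 ± 0.16, adjusted p = 3.9e-05). The 3 genes thus differed by a nearly equal factor, 2.94-fold for Penk, 2.82-fold for Pdyn and 2.83-fold for Tac1. Per length their levels were far apart, with mean TPM (transcripts scaled for length and library total) in the NAc of 2409 ± 723 (SD, n = 6) for Penk, 135 ± 41.2 for Pdyn and 126 ± 25.9 for Tac1.

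Nts, the neurotensin precursor, was at 19.2 to 29.7 CPM in the NAc, median 24.2, and at 2.99 to 15.5 CPM in the libraries labelled mPFC, median 9.04 (log2FC 1.62 ± 0.32, adjusted p = 0.0046). Agt, the angiotensin precursor and in brain mainly an astrocyte gene, had 13.5 to 44.0 CPM, median 20.5, against 2.53 to 11.5 CPM, median 7.40 (log2FC 1.81 ± 0.18, adjusted p = 2.2e-05). Neither gene overlapped between the labels. Agt sits beside the astrocyte list, of which 4 of 8 genes were called higher in the NAc (10.5% of all protein-coding genes were). The sum of that list was 4168 to 5812 CPM in the NAc and 2824 to 4876 CPM in the libraries labelled mPFC. The part of astrocyte RNA in Agt was not tested. Crh, corticotropin-releasing hormone, was low, at 4.02 to 14.1 CPM, median 8.52, against 0.810 to 4.56 CPM, median 2.25 (log2FC 1.82 ± 0.39, adjusted p = 0.0066).

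Cartpt, the precursor of cocaine- and amphetamine-regulated transcript peptides, was at 12.5 to 22.0 CPM in the NAc, median 16.8, and at 4.68 to 12.1 CPM in the libraries labelled mPFC, median 8.32, with a log2FC of 1.09 ± 0.24 (adjusted p = 0.0081). Npy and Sst, peptides of GABAergic interneurons in both regions, were also higher in the NAc. Npy had 31.4 to 86.7 CPM, median 39.3, against 14.5 to 26.5 CPM, median 24.5 (log2FC 1.02 ± 0.20, adjusted p = 0.004). Sst had 162 to 358 CPM, median 238, against 87.5 to 230 CPM, median 161, with overlap and 5 of 6 pools higher in the NAc (log2FC 0.64 ± 0.20, adjusted p = 0.043). The Sst call ended without any 1 of the 3 female pools or male pool 3 (adjusted p between 0.072 and 0.15), and without the pool block (adjusted p = 0.069). The 12 interneuron markers as a list had 8 genes called higher in the NAc and 0 higher in the libraries labelled mPFC. Of all protein-coding genes, 10.5% and 7.85% were so called. Sst and Npy belong to that list too. Cck and Vip were not called. Cck spread from 5.04 to 68.1 CPM among the libraries labelled mPFC and from 8.40 to 52.8 CPM in the NAc (log2FC 0.54 ± 0.46, adjusted p = 0.40).

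Against this direction stood Pnoc, the precursor of nociceptin. It was at 2.32 to 6.56 CPM in the NAc, median 4.52, and at 7.58 to 23.4 CPM in the libraries labelled mPFC, median 16.0. Its groups did not overlap, all 6 pools were higher in the libraries labelled mPFC, and the log2FC was −1.78 ± 0.19 (adjusted p = 2.8e-05). Adm, adrenomedullin, was the other such gene, at 0.843 to 2.17 CPM against 2.18 to 4.44 CPM (log2FC −1.15 ± 0.37, adjusted p = 0.046), a level at which a library holds few counts. Of 12 granin and peptide-processing genes, 3 were higher in the NAc and 0 were higher in the libraries labelled mPFC (median log2FC 0.36). The shares over all protein-coding genes were 10.5% and 7.85%, and 17.6% and 7.14% at 10 CPM or more. The 3 were the secretory granule proteins Scg2 (log2FC 0.82 ± 0.15, adjusted p = 0.0031) and Chgb (log2FC 0.67 ± 0.16, adjusted p = 0.015) and the convertase inhibitor Pcsk1n (log2FC 0.58 ± 0.16, adjusted p = 0.024). Scg2 was at 282 to 479 CPM in the NAc and 143 to 256 CPM in the libraries labelled mPFC, without overlap.

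**Figure D3:**
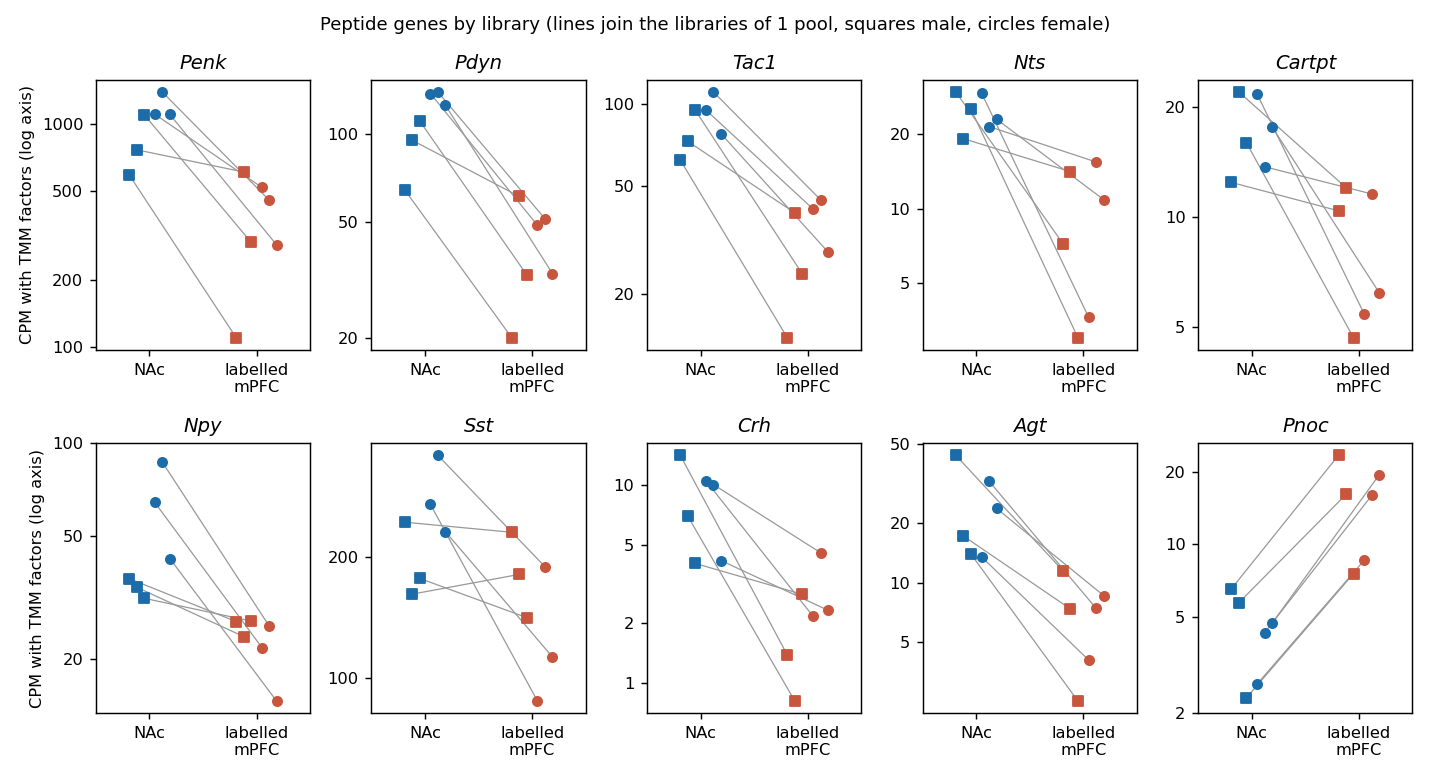
CPM with TMM factors, on log axes, of 10 peptide genes in the 12 cocaine-seeking libraries, with a line joining the NAc library and the library labelled mPFC of each pool, squares for male and circles for female pools. Penk, Pdyn, Tac1, Nts, Cartpt, Npy, Crh and Agt fall from left to right in all 6 pools and Sst in 5 of 6, whereas Pnoc rises in all 6.

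Receptors for dopamine and adenosine were higher in the NAc where they were called. Of 9 tested, 4 were called, all in that direction (Adora2a, Drd1, Drd2 and Adora1), and the median log2FC was 0.78. Over all protein-coding genes, 10.5% were called higher in the NAc, and 17.6% of those with a mean of 10 CPM or more. Drd1, the receptor of the substance P and dynorphin cells, was at 63.7 to 122 CPM in the NAc, median 105, and 15.2 to 74.5 CPM in the libraries labelled mPFC, median 45.6, higher in the NAc in 6 of 6 pools (log2FC 1.19 ± 0.20, adjusted p = 0.0014). Adora2a, the adenosine receptor of the enkephalin cells, was at 84.8 to 169 CPM, median 135, against 13 to 94.6 CPM, median 55.7 (log2FC 1.46 ± 0.25, adjusted p = 0.0019). Drd2 differed less, 67.0 to 135 CPM, median 111, against 35.3 to 104 CPM, median 61.6, in 5 of 6 pools (log2FC 0.79 ± 0.20, adjusted p = 0.018). All 3 genes overlapped between the labels. For Drd1 the NAc library of male pool 1 (63.7 CPM) lay below the libraries labelled mPFC of female pool 1 (74.5 CPM) and male pool 2 (67.6 CPM). The Drd2 call ended without female pool 2, female pool 3 or male pool 3 (adjusted p = 0.054, 0.084 and 0.072) and with length-scaled counts (adjusted p = 0.15).

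Opioid receptors split. Oprd1, the delta receptor for enkephalin, was at 19.3 to 32.9 CPM in the NAc, median 28.0, and 12 to 18.6 CPM in the libraries labelled mPFC, median 16.3, with no overlap (log2FC 0.74 ± 0.14, adjusted p = 0.0032). Oprk1, the kappa receptor for dynorphin, was at 17.8 to 28.3 CPM, median 24.1, against 8.23 to 24.8 CPM, median 14.3 (log2FC 0.73 ± 0.17, adjusted p = 0.012). Oprm1, the mu receptor, was not called, at 9.99 to 21.6 CPM against 9.91 to 15.8 CPM (log2FC 0.28 ± 0.18, adjusted p = 0.25). The cannabinoid receptor Cnr1 was not called either, at 83.2 to 147 CPM against 63.6 to 142 CPM (log2FC 0.25 ± 0.18, adjusted p = 0.32).

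Of 14 serotonin receptor genes, 6 were higher in the NAc, 1 was higher in the libraries labelled mPFC and 7 were not called (median log2FC 0.25). Over all protein-coding genes, 10.5% were called higher in the NAc and 7.85% in the libraries labelled mPFC. Htr2a, the excitatory receptor that psychedelics act on, was at 25.4 to 42.4 CPM in the NAc, median 34.5, and at 9.69 to 20.1 CPM in the libraries labelled mPFC, median 10.8, without overlap (log2FC 1.40 ± 0.17, adjusted p = 0.0001). Htr4 (log2FC 1.27 ± 0.24, adjusted p = 0.0029) and Htr1d (log2FC 1.16 ± 0.21, adjusted p = 0.0025) did not overlap either, and Htr2c was at 58.2 to 98.1 CPM against 30.6 to 69.2 CPM (log2FC 0.58 ± 0.15, adjusted p = 0.018). Htr1a, an inhibitory receptor, went the other way, 10.3 to 19.3 CPM, median 13.3, against 15.8 to 43.8 CPM, median 22.5 (log2FC −0.79 ± 0.19, adjusted p = 0.012). The alpha-adrenergic receptors showed the same opposition within 1 family. Adra2c was at 34.9 to 73.7 CPM in the NAc and 14.8 to 31.5 CPM in the libraries labelled mPFC (log2FC 1.29 ± 0.13, adjusted p = 2.2e-05), while Adra2a was at 13.6 to 31.3 CPM and 26.5 to 76.5 CPM (log2FC −1.15 ± 0.14, adjusted p = 9.4e-05). With length-scaled counts the Adra2c difference fell to 0.57 and was no longer called (adjusted p = 0.14). The histamine receptor Hrh3, an autoreceptor and heteroreceptor, was higher in the NAc (log2FC 0.66 ± 0.13, adjusted p = 0.0051).

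Of 18 muscarinic and nicotinic receptor genes, 2 were higher in the NAc and 5 in the libraries labelled mPFC. Among all protein-coding genes, 10.5% and 7.85% were called in those directions. The muscarinic receptors Chrm4, carried by the Drd1 cells, and Chrm1 were higher in the NAc, Chrm4 at 27.5 to 57.9 CPM against 12.9 to 30.1 CPM (log2FC 1.05 ± 0.17, adjusted p = 0.0013) and Chrm1 at 119 to 174 CPM against 59.0 to 117 CPM (log2FC 0.84 ± 0.15, adjusted p = 0.0024). The 5 members higher in the libraries labelled mPFC were nicotinic subunits, Chrna5, Chrna9, Chrna10, Chrna3 and Chrna1. The 5 had a median level of 3.33 CPM, and 8.84% of protein-coding genes under 10 CPM were called in that direction. Males alone, and the fit without female pool 2, called 0 genes of this list in that direction. Those of the 5 named by rule were scarce. Chrna5 was at 0.773 to 3.86 CPM in the NAc and 3.42 to 5.84 CPM in the libraries labelled mPFC, Chrna9 at 1.00 to 2.35 CPM and 2.48 to 4.30 CPM, and Chrna10 at 0.850 to 1.79 CPM and 1.31 to 5.07 CPM, with adjusted p between 0.037 and 0.046. None of the 3 was called in females alone or in the non-ensemble libraries.

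Peptide receptors, the largest receptor list, had 10 of 58 tested members higher in the libraries labelled mPFC and 4 higher in the NAc (median log2FC −0.42). Of all protein-coding genes, 7.85% and 10.5% were called in those directions. The 10 had a median level of 6.29 CPM, and 8.84% of protein-coding genes under 10 CPM were called higher in the libraries labelled mPFC. The 10 were Glp1r, Npffr1, Sstr5, Crhr2, Avpr1a, Aplnr, Ramp3, Mc3r, Avpr1b and Glp2r. Glp1r, the receptor for the incretin hormone glucagon-like peptide (chr17:31120525-31159765), was at 9.23 to 15.1 CPM in the NAc, median 12.9. In the libraries labelled mPFC it was 176, 126 and 46.3 CPM in male pools 1, 2 and 3 and 32.3, 131 and 86.6 CPM in female pools 1, 2 and 3. The lowest of these was more than the highest NAc library, and the log2FC of −2.80 ± 0.31 (6.99-fold, adjusted p = 4e-05) was the farthest from 0 of all named members. Npffr1, a receptor for RF-amide peptides, was at 2.63 to 12.4 CPM against 10.3 to 36.0 CPM (log2FC −2.0 ± 0.21, adjusted p = 2.8e-05) and Sstr5, a somatostatin receptor, at 0.468 to 4.32 CPM against 5.05 to 8.62 CPM (log2FC −1.60 ± 0.40, adjusted p = 0.017). The CRH receptors pointed in opposite directions. Crhr1 was at 9.63 to 16.2 CPM in the NAc and 5.07 to 8.45 CPM in the libraries labelled mPFC (log2FC 0.86 ± 0.21, adjusted p = 0.014), and Crhr2 had medians of 4.53 and 12.9 CPM (log2FC −1.51 ± 0.26, adjusted p = 0.0015). Crhr2, unlike the others, was picked out after its values were seen. Higher in the NAc besides Crhr1 were Ramp1, a partner of the calcitonin-type receptors (log2FC 0.80 ± 0.12, adjusted p = 0.00083), Tacr1, the substance P receptor (log2FC 0.61 ± 0.17, adjusted p = 0.026), and Ntsr2.

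Orphan G-protein-coupled receptors had 11 of 39 members higher in the NAc and 2 higher in the libraries labelled mPFC. The shares over all protein-coding genes were 10.5% and 7.85%, and 17.6% and 7.14% at 10 CPM or more. Gpr149 (log2FC 1.39 ± 0.18, adjusted p = 0.00021) and Gpr101 (log2FC 1.20 ± 0.18, adjusted p = 0.00064) did not overlap between the labels, with 20.0 to 28.1 CPM against 5.25 to 12.2 CPM for Gpr149. The 2 in the other direction, Gpr152 and Gpr161, differed by −0.70 ± 0.22 and −0.57 ± 0.15 (adjusted p = 0.042 and 0.019).

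Among the receptors for glutamate and GABA, no ionotropic glutamate, GABA-A or glycine receptor subunit was called higher in the libraries labelled mPFC. Of all protein-coding genes, 7.85% were called in that direction and 10.5% higher in the NAc. With a mean of 10 CPM or more, the shares were 7.14% and 17.6%. Of 18 ionotropic glutamate receptor genes, 6 were higher in the NAc. Grin2a, an NMDA receptor subunit, was at 374 to 477 CPM against 168 to 312 CPM, without overlap (log2FC 0.84 ± 0.14, adjusted p = 0.0011), whereas Grin2b, the other main NMDA subunit of forebrain neurons, was at 997 to 1221 CPM against 787 to 1475 CPM and was not called (log2FC 0.11 ± 0.16, adjusted p = 0.63). The kainate subunits Grik5 and Grik1 differed by 0.68 ± 0.13 and 0.62 ± 0.18 (adjusted p = 0.0033 and 0.032). Of 24 GABA-A and glycine receptor genes, 5 were higher in the NAc. Gabrd, the subunit of extrasynaptic receptors, was at 37.7 to 67.5 CPM against 16.5 to 45.8 CPM (log2FC 1.03 ± 0.17, adjusted p = 0.0011), and Gabrb2 at 148 to 203 CPM against 68.9 to 160 CPM (log2FC 0.81 ± 0.16, adjusted p = 0.004). Of the 10 metabotropic glutamate and GABA-B receptor genes, Grm3 and Grm7 were higher in the NAc by 0.53 ± 0.14 and 0.47 ± 0.13 (adjusted p = 0.023 for both) and Grm8 was lower by −0.53 ± 0.13 (adjusted p = 0.015). Grm5, the main group I receptor of the striatum, was at 300 to 487 CPM and 338 to 563 CPM (log2FC −0.15 ± 0.17, adjusted p = 0.52). Grm2 was at 7.92 to 20.0 CPM and 8.52 to 30.4 CPM (log2FC −0.46 ± 0.20, adjusted p = 0.11).

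Ion channels that generate and shape action potentials were often higher in the NAc. Over all protein-coding genes, 10.5% were called higher in the NAc and 7.85% in the libraries labelled mPFC. At a mean of 10 CPM or more, these shares were 17.6% and 7.14%. Of 15 sodium channel genes, 6 were higher in the NAc and 1 in the libraries labelled mPFC. Scn4b, the beta subunit typical of medium spiny neurons (chr9:45049595-45065452), was at 329 to 672 CPM in the NAc, median 519, and at 53.1 to 328 CPM in the libraries labelled mPFC, median 178 (log2FC 1.56 ± 0.25, adjusted p = 0.00096). The groups met at the edge, with 328 CPM in female pool 1 labelled mPFC and 329 CPM in male pool 1 of the NAc. Scn1a, the pore subunit known from fast-spiking interneurons, was at 112 to 182 CPM against 58.1 to 71.8 CPM (log2FC 1.27 ± 0.14, adjusted p = 4.8e-05).

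Of 24 calcium channel genes, 12 were higher in the NAc and 2 in the libraries labelled mPFC (median log2FC 0.43). The shares over all protein-coding genes were 10.5% and 7.85%, and 17.6% and 7.14% at 10 CPM or more. The T-type pore subunits were on both sides. Cacna1h was at 17.7 to 56.9 CPM in the NAc and 6.30 to 18.9 CPM in the libraries labelled mPFC (log2FC 1.61 ± 0.25, adjusted p = 0.00076), and Cacna1g was at 77.8 to 133 CPM and 66.4 to 211 CPM (log2FC −0.46 ± 0.15, adjusted p = 0.048). The auxiliary subunit Cacna2d3 was at 154 to 316 CPM against 55.1 to 181 CPM (log2FC 1.15 ± 0.17, adjusted p = 0.00065). Cacng7 and Cacng5, subunits that also escort AMPA receptors, moved apart, by 1.11 ± 0.13 (adjusted p = 5.9e-05) and −0.81 ± 0.23 (adjusted p = 0.028).

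Of 50 voltage-gated potassium channel genes, 23 were higher in the NAc and 2 in the libraries labelled mPFC (median log2FC 0.43). Protein-coding genes at large had shares of 10.5% and 7.85%, and of 17.6% and 7.14% at 10 CPM or more. Kcnab3, a beta subunit, was at 28.4 to 40.6 CPM, median 32.0, against 5.76 to 10.8 CPM, median 8.24, the largest difference of the list (log2FC 1.96 ± 0.15, adjusted p = 2.3e-06). Kcnh5 was at 51.8 to 90.0 CPM against 18.6 to 31.7 CPM (log2FC 1.43 ± 0.13, adjusted p = 8.5e-06), and Kcnc2, which lets neurons fire fast, at 48.0 to 80.9 CPM against 16.4 to 40.4 CPM (log2FC 1.43 ± 0.18, adjusted p = 0.00013). None of the 3 overlapped. Kcng2 and Kcnip1 were the 2 in the other direction, with log2FC −1.37 ± 0.30 (adjusted p = 0.0088) and −0.59 ± 0.15 (adjusted p = 0.019).

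Of 41 inward rectifier, tandem-pore and calcium-activated potassium channel genes, 8 were higher in the NAc and 5 in the libraries labelled mPFC. The shares over all protein-coding genes were 10.5% and 7.85%, and 17.6% and 7.14% at 10 CPM or more. The 5 had a median level of 6.13 CPM, and 8.84% of protein-coding genes under 10 CPM were called in that direction. The inward rectifiers Kcnj4 and Kcnj2, which hold medium spiny neurons at their resting potential, were among those higher in the NAc. Kcnj4 was at 112 to 171 CPM against 39.7 to 72.6 CPM (log2FC 1.38 ± 0.14, adjusted p = 2.2e-05) and Kcnj2 at 25.5 to 50.5 CPM against 11.4 to 32.3 CPM (log2FC 0.81 ± 0.13, adjusted p = 0.00083). The tandem-pore channels Kcnk2 (log2FC 1.09 ± 0.17, adjusted p = 0.00076) and Kcnk3 (log2FC 0.86 ± 0.18, adjusted p = 0.0064) were higher in the NAc as well. Kcnmb1, Kcnn4 and Kcnj15, at most 13.1 CPM in any library, were higher in the libraries labelled mPFC with log2FC of −1.56 ± 0.36, −1.14 ± 0.32 and −0.88 ± 0.26 (adjusted p = 0.011, 0.028 and 0.031).

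Among 66 cation, chloride and store channel genes, 10 were higher in the NAc and 8 in the libraries labelled mPFC. The shares over all protein-coding genes were 10.5% and 7.85%, and 17.6% and 7.14% at 10 CPM or more. The counts of this list lay near these shares. The calcium-activated chloride channel Ano1 was at 3.86 to 7.16 CPM in the NAc, median 5.52, and at 18.6 to 47.8 CPM in the libraries labelled mPFC, median 40.4 (log2FC −2.59 ± 0.18, 6.01-fold, adjusted p = 1.1e-06). Trpc4, a receptor-operated cation channel (chr3:54062980-54226123), was at 12.5 to 19.4 CPM, median 16.0, against 36.0 to 124 CPM, median 90.1 (log2FC −2.19 ± 0.20, adjusted p = 9.1e-06). Neither overlapped, and both were higher in the libraries labelled mPFC in every pool. Ano7 was scarce, at 0.468 to 1.94 CPM against 2.15 to 4.53 CPM (log2FC −1.32 ± 0.41, adjusted p = 0.04). In the other direction stood the proton-gated channel family member Asic4 (log2FC 1.47 ± 0.22, adjusted p = 0.0007), the store channel Itpr1, at 1069 to 1646 CPM against 535 to 967 CPM (log2FC 0.85 ± 0.17, adjusted p = 0.0045), and Ano3 (log2FC 0.76 ± 0.16, adjusted p = 0.0058).

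**Figure D4:**
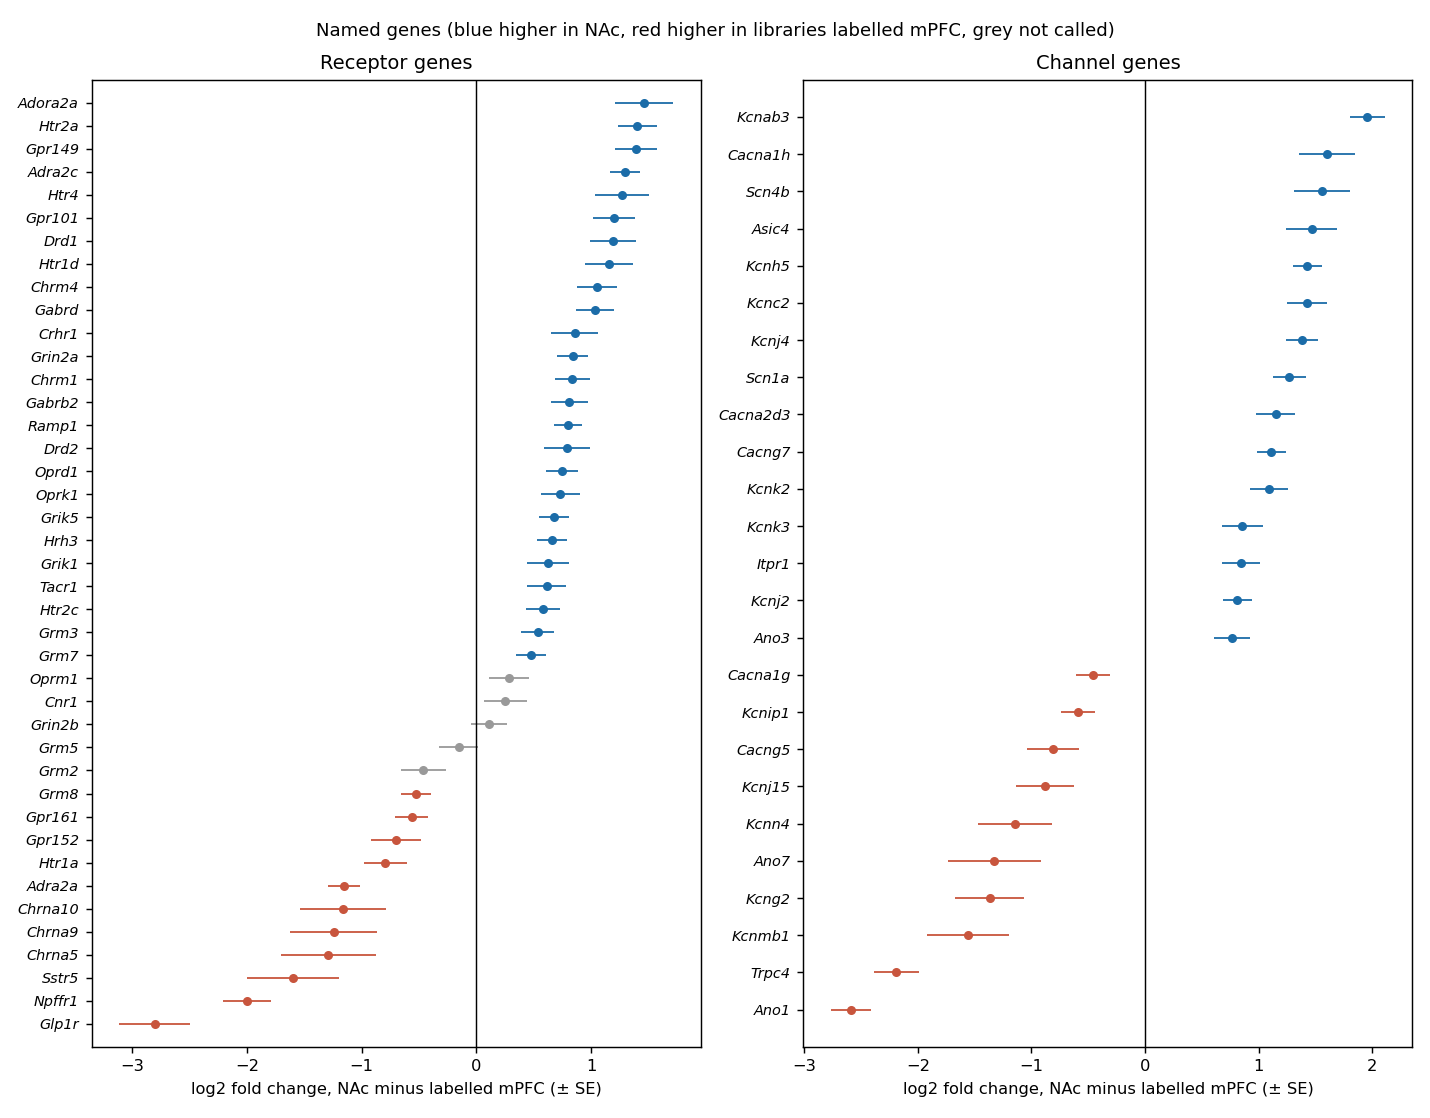
log2 fold change (NAc minus libraries labelled mPFC, bars ± SE, 6 pools) of the named receptor genes (left) and channel genes (right), blue where higher in the NAc, red where higher in the libraries labelled mPFC and grey where not called at an adjusted p under 0.05. Glp1r (−2.80) and Ano1 (−2.59) lie farthest to the left, and Adora2a (1.46) and Kcnab3 (1.96) farthest to the right in their panels.

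Outside the lists, the called genes with a mean of 10 CPM or more and the largest differences were Otof, Aldh1a1, Krt12, Lgi2 and Syt2 on the NAc side and Thbs4, Ccdc153, Zic2, Zic1 and Dnah12 on the other. Otof, a calcium sensor of vesicle release, was at 131 to 265 CPM against 21.9 to 31.5 CPM (log2FC 2.66 ± 0.15, adjusted p = 3.1e-07). The transcription factor Zic1 was at 9.0 to 30.4 CPM in the NAc and 73.6 to 360 CPM in the libraries labelled mPFC (log2FC −3.15 ± 0.31, adjusted p = 2e-05). Ccdc153 and Dnah12 are genes of motile cilia. Slc17a7 itself was called higher in the NAc (log2FC 1.63 ± 0.49, adjusted p = 0.036), and it was −0.41 in male pools 1 and 3 alone.

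Not every call above held when libraries or counts were handled otherwise. When the 6 pools were left out 1 at a time, 25 called genes lost their call at least once, namely Adm, Ano7, Cacna1g, Cacng5, Chgb, Chrna10, Chrna5, Chrna9, Drd2, Gpr152, Gpr161, Grik1, Grm3, Grm7, Grm8, Htr2c, Kcnip1, Kcnj15, Kcnn4, Oprk1, Pcsk1n, Slc17a7, Sst, Sstr5 and Tacr1 (highest adjusted p of each between 0.057 and 0.16). With length-scaled counts 27 did, among them, besides genes already listed, Adra2c, Ano3, Chrm1, Crhr1, Grik5, Grin2a, Hrh3, Htr1a, Kcnk3, Kcnmb1 and Oprd1. Without the pool block 6 did, namely Cacna1g, Chrna5, Gpr152, Grik1, Slc17a7 and Sst. Penk, Pdyn, Tac1, Nts, Pnoc, Drd1, Adora2a, Glp1r, Ano1, Trpc4, Scn4b and Kcnab3 kept their call in each of these settings.

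More members were called in the female pools than in the male pools. Of the 480 listed genes in the files, females alone called 167 higher in the NAc and 51 higher in the libraries labelled mPFC. Of all genes, 20.8% and 15% were called in those directions. Males alone called 34 and 12 listed genes (0.9% and 0.837% of all genes). The 116 and 40 members were chosen on a fit that holds these same libraries, so their shares cannot be set against those of all genes. Of them, females called 111 and 22 and males 34 and 11. Both sexes called 34 and 7. The test of the difference between the sexes called 0 of 452 members with edgeR, and 0 of all genes, with 25 members at an unadjusted p under 0.05 in the direction of a larger NAc excess in males and 70 in the direction of a larger NAc excess in females (20.1% of all genes passed that level). DESeq2 called 1 and 40 members. Over all genes that test called 1777 with DESeq2 and 1734 with edgeR without male pool 3. Among the named members, examples are Npy, with a log2FC of 0.41 in males and 1.66 in females, Sst, with 0.08 and 1.23, and Cnr1, with −0.29 and 0.83 (adjusted p = 0.14 for each difference). These 3 were chosen after their values were seen. In male pools 1 and 3, Slc17a7 in the library labelled mPFC was at the level of the NAc. There 29 listed genes were called higher in the NAc and 10 higher in the libraries labelled mPFC (0.725% and 0.738% of all genes). Among them were 28 of the 116 and 8 of the 40. Penk was at 2.18, Tac1 at 2.11, Drd1 at 1.89, Glp1r at −3.04 and Trpc4 at −2.05 on the log2 scale in those pools, each called, in a fit on 4 libraries. Without female pool 2, whose Ddx3y and Eif2s3y counts go against its label, 80 and 17 listed genes were called (3.81% and 2.16% of all genes). All of these belonged to the 116 and the 40.

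In the untagged neurons, all of the 116 and the 40 members had the same sign of region difference, though not all were called there. These members had been chosen on the cocaine-seeking libraries. In the 12 non-ensemble libraries, sorted from the same punches, 85 listed genes were called higher in the NAc and 17 higher in the libraries labelled mPFC. Of all genes, 4.09% and 2.21% were called there. The 85 and 17 included 84 of the 116 members and 16 of the 40, in the same direction. Penk differed by 1.62 on the log2 scale there and by 1.56 in the cocaine-seeking neurons, Tac1 by 1.54 and 1.50, Glp1r by −3.14 and −2.80 and Trpc4 by −2.49 and −2.19. The test of the difference between the populations, over 24 libraries with each pool and region as a block, called 0 of 465 members and 0 of 25558 genes with edgeR, and 13 members reached an unadjusted p under 0.05, where 3.86% of all genes did. DESeq2 called 1 gene, no member. Npffr1 was at −2.78 in the non-ensemble and −2.0 in the cocaine-seeking neurons (difference 0.79 ± 0.26, adjusted p = 1). A p that misses the threshold does not show that the populations were alike.

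**Figure D5:**
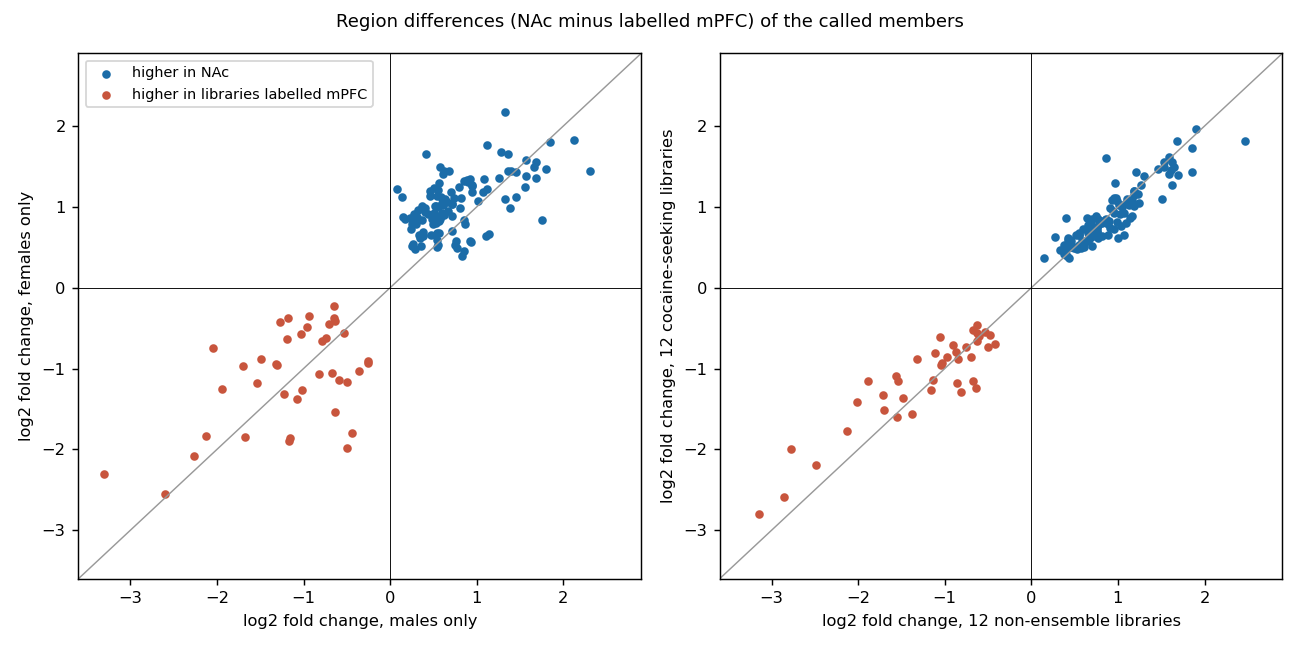
log2 fold change (NAc minus libraries labelled mPFC) of the 156 called members in males against females (left) and in the non-ensemble against the cocaine-seeking libraries (right), with the line of equality in grey. The members were chosen on the pooled cocaine-seeking libraries, which fixes much of the shared sign on the left. On the right, the vertical axis is the value they were chosen on, and the non-ensemble libraries come from the same punches. There the members lie along the line, from Glp1r (−3.14 and −2.80) to Kcnab3 (1.90 and 1.96).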

How the data were processed

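RNA from sorted neurons was sequenced after ribosomal depletion, and the authors trimmed the reads with cutadapt and quantified them against the GRCm39 mouse transcriptome with Salmon. The deposited values used here are Salmon's expected counts per transcript, and the TPM that the authors deposited beside them were summed per gene to compare levels between genes. Expected counts were summed per gene with the GENCODE vM39 annotation and rounded. Between 2.45% and 6.34% of a library's counts had no match and were left out. Unless stated otherwise CPM carry TMM factors. The filter on low counts, TMM factors and quasi-likelihood test were those of edgeR 4.0.16 in R 4.3.3, with Benjamini-Hochberg adjustment over all genes and a threshold of 0.05. Sex and replicate number together were taken as the pool and used as a block, on the assumption, not stated in the sources, that equal numbers mark the same mice in both regions. Tests were run on simulated data first: 41% of genes changed by a log2 of 1 and 84% of those changed by 2 were recovered in the region comparison over 21478 genes.

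Named were up to 3 called members per list and direction with the largest change and a mean of at least 1 CPM, a fixed set of well-known genes, and 5 called genes per direction outside the lists with a mean of at least 10 CPM. The gene lists and members were chosen with earlier results of these data known. Alternatives were limma-voom 3.58.1, DESeq2 1.42.0 and its size factors, length-scaled counts, no filter, protein-coding genes only, no block, a stricter call, each sex, non-ensemble libraries and each pool left out. Replicates are pools of mice. Some genes named by this rule are not reported here.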

Additional observations from a re-analysis of the deposited data

Results flagged for a closer look

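In 8 of 186 groups of 6 libraries, 1 library stood apart from the other 5 in a named gene. Chance gives about 1 in 20 such groups. In the NAc library of male pool 1, Cacna1g was at 133 CPM (77.8 to 95.1 in the others), Grm2 at 20.0 CPM (7.92 to 11.4) and Npffr1 at 12.4 CPM (2.63 to 4.94). In the library labelled mPFC of male pool 1, Gabrb2 was at 160 CPM (68.9 to 99.5) and Grm8 at 70.1 CPM (32.7 to 46.2). Grm7 was at 112 CPM in the library labelled mPFC of male pool 2 (76.1 to 86.4) and Gpr101 at 7.02 CPM in that of male pool 3 (14.1 to 18.0). Zic2 was at 7.63 CPM in the NAc library of female pool 2 (3.72 to 4.96).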

How the results depend on the processing

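The region comparison called 2018 genes higher in the NAc and 1727 higher in the libraries labelled mPFC. The counts were 3129 and 2617 with DESeq2, 901 and 572 with length-scaled counts, 406 and 323 with the stricter call, 200 and 186 in males, 5041 and 3634 in females, 167 and 170 in male pools 1 and 3 (chosen after seeing the data), and 901 and 487 in the non-ensemble libraries (chosen after seeing the data). Leaving out 1 pool at a time gave 758 to 3775 and 436 to 3578. The lowest counts came without female pool 3 and the highest without male pool 1. Without female pool 1 they were 1002 and 573, without female pool 2 they were 866 and 492, and without male pool 3 they were 1153 and 596. The cause was not tested. The pairing behind the pool block was assumed. The deviations of the 2 libraries of a pool correlated at −0.097 to 0.33, so the data do not show it in every pool, and without the pool block the counts were 2000 and 1778.

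The difference between the sexes, 0 genes with edgeR (4513 at an unadjusted p under 0.05), was 1777 with DESeq2, 545 with no filter on low counts, and 1 to 1734 with 1 pool left out, the highest without male pool 3. The difference between the populations, 0 with edgeR (986 at an unadjusted p under 0.05), was 1 with DESeq2, 1 with no filter, and 0 to 1 with 1 pool left out. Slc17a7 turned to −0.41 in male pools 1 and 3.

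With length-scaled counts 27 of the named genes lost their call, with no block 6, in males 47, in females 12 and in the non-ensemble libraries 22. Low counts limit the members under 10 CPM, where a library holds few reads of a gene.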

Other observations

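Glial and vascular markers were present in these NeuN-sorted libraries. Of all protein-coding genes, 10.5% were called higher in the NAc, and 17.6% of those with a mean of 10 CPM or more. Beside these shares, counts of 1 or 2 in lists this short say little. Of 8 oligodendrocyte markers, 6 were called higher in the NAc (among them Mbp, Mobp, Cnp, Mog and Mag) and 0 higher in the libraries labelled mPFC, with a summed level of 1748 to 3020 CPM against 1625 to 2205 CPM. Of 9 microglia markers 1 was higher in the NAc, at 388 to 476 CPM summed against 302 to 478 CPM. Of 8 endothelial markers 2 were higher in the NAc, at 112 to 203 CPM against 88.7 to 182 CPM, and of 8 pericyte and smooth muscle markers 2, at 84.0 to 110 CPM against 62.3 to 122 CPM. The part of these cells' RNA in the receptor, channel and peptide results was not tested.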
